A study of Homo sapiens with 18 samples.

Results

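Newly made RNA collected after 15 min of labelling was compared with newly made RNA collected after 7.5 min, the earliest pair of labelling times in the series. The comparison rests on 6 of the 18 libraries, 3 at each time, and asks which RNAs differ first as the labelling goes on and how far introns have been removed. A gene entered when its values averaged at least 1 TPM (the abundance of a transcript scaled for its length and for the size of the library) over the 6 libraries, which kept 16820 mature and 15059 primary values of 63568 gene entries. A ratio of primary to mature RNA was tested for 12756 genes with both, and 21782 introns in 4163 genes had an excised share at both times. All 6 libraries came from HEK293, an established human embryonic kidney line without a named genetic change, given 4-thiouridine at 500 µM. The labelled RNA was biotinylated, captured on streptavidin and sequenced with strand information from both ends. The time in 4-thiouridine is the only labelled difference between the groups. Labelled RNA from 30, 45 and 60 min served to estimate the spread and as later values, and total RNA was not used. Whether replicates A, B and C were separate cultures is not stated in the labels, and the spread behind each p-value may be technical. Values of 3 libraries are given in the order A, B, C, those of 7.5 min first.

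4-thiouridine is a uridine analogue that cells build into the RNA they are making, and the sulfur atom it carries allows that RNA to be pulled out of the total. A primary transcript still holds its introns, and a mature one has lost them, so RNA from a very short labelling is rich in transcripts that are still being made or spliced, and longer labelling adds finished messages. An RNA that is made fast and decays fast reaches its steady level early in such an experiment, while a stable RNA goes on accumulating.

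The 6 libraries held RNA of the intermediate filament genes VIM and KRT8, both expressed in HEK293, with mature values from 230.4 to 371 TPM for VIM and from 36.7 to 62.4 TPM for KRT8. Of 9 HEK293 markers found among the gene entries, 7 reached the filter, and VIM and KRT8 had the highest means of these. Of 20 markers of other cell types, 6 reached the filter, and EPCAM was the highest of these in each library. All 20 together summed to 44.0 to 62.9 TPM. In a bulk sample, fewer cells of a type and less RNA per cell cannot be told apart. Replicate A at 15 min stood apart from the other 5 libraries, with a mean Spearman correlation across genes of 0.852 for mature and 0.906 for primary values, against 0.888 to 0.899 and 0.937 to 0.955 for the others. It also had the lowest share of TPM in primary transcripts. That share was 23.4%, 22.3% and 23.8% at 7.5 min and 18.7%, 20.8% and 25.7% at 15 min. The median unspliced share over genes (primary TPM as a percent of primary plus mature) was 40.3%, 39.1% and 40.0% at 7.5 min and 34.9%, 36.7% and 41.8% at 15 min. The ranges overlapped in both measures. The means differed by -1.43 percentage points for the share of TPM (exact permutation test, two-sided, p = 0.6) and by -1.99 points for the unspliced share (p = 0.4), where 3 against 3 libraries cannot give a p under 0.1. Leaving out replicate A at 15 min, the first difference was 0.09 and the second -0.53 points, and leaving out replicate C at 15 min they were -3.43 and -3.99 points. Results that rest on this library are also given without it.

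Few mature RNAs were called as different between 7.5 and 15 min. The threshold of 0.05 (limma, Benjamini-Hochberg adjusted) was passed by 9, 8 higher and 1 lower at 15 min. On simulated data 26% of abundant genes changed by a log2 of 1 were recovered, so a gene not called may still differ. Without replicate A at 7.5 min there were 15 calls, without replicate B or C at 7.5 min 4, and without replicate A at 15 min 16. The 6 libraries fitted alone gave 2 calls, and no gene with a symbol among the 9 passed there. The 9 made up 0.0535% of the genes tested, 0.0476% for the higher and 0.00595% for the lower. At an unadjusted p under 0.05 there were 1541 genes, 696 higher and 845 lower (9.16%, 4.14% and 5.02%), and the median difference over all genes was -0.01 on the scale log2(TPM + 1). The same fit called 1416 mature RNAs at 30 min, 2820 at 45 min and 3298 at 60 min against the same 7.5 min libraries. The mature RNAs past the threshold at 15 min included those of a secreted protease, transcription factors, a kinase-like adaptor, a receptor ligand and a host RNA for small nucleolar RNAs.

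ADAMTS1 encodes a secreted metalloprotease that cleaves extracellular matrix proteoglycans. Its mature RNA was at 83.8, 79.3 and 93.0 TPM in the 7.5 min libraries and at 227, 285 and 259 TPM in the 15 min libraries. The 2 groups were far apart, a 3.01-fold difference of the means. On the log2(TPM + 1) scale the difference was 1.58 ± 0.16 (SE, limma, adjusted p = 0.0013). Its later means were 460.5 ± 63.1, 406 ± 61.8 and 372 ± 21.6 TPM at 30, 45 and 60 min (SD, n = 3). TRIB1, a pseudokinase that brings target proteins to a ubiquitin ligase, was at 75.9, 32.9 and 38.5 TPM, against 161, 148 and 158 TPM. Replicate A was the highest of the 7.5 min libraries, and every 15 min library lay above it. The difference was 1.74 ± 0.27 (SE, limma, adjusted p = 0.0283). Both genes had their highest mean level at 30 min among the 5 times. ADAMTS1 passed with any 1 library left out, whereas TRIB1 missed the threshold without replicate B or C at 7.5 min (1.51 and 1.62) and without replicate A, B or C at 15 min (1.71, 1.78 and 1.73).

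SNHG1 is a spliced non-coding RNA whose introns hold small nucleolar RNAs that guide ribosomal RNA modification. Its mature form was at 63.1, 49.1 and 48.95 TPM, against 194, 211 and 158 TPM, a 3.49-fold difference with no overlap (1.78 ± 0.21 SE, limma, adjusted p = 0.0034). KLF9, a zinc finger transcription factor that responds to hormones, had the largest fold of the named genes, 6.42. It was at 1.21, 2.90 and 2.21 TPM, against 13.4, 16.8 and 10.4 TPM (2.24 ± 0.28 SE, limma, adjusted p = 0.00457). E2F3, which drives genes of the cell cycle's DNA synthesis phase, was at 9.12, 6.69 and 6.69 TPM, against 25.6, 26.4 and 19.04 TPM (1.54 ± 0.22 SE, limma, adjusted p = 0.0211). SNHG1 and KLF9 passed with any 1 library left out, and E2F3 missed the threshold without replicate B or C at 7.5 min (1.47 each) or B at 15 min (1.45). KLF9 and E2F3 went on to higher means at each later time, 29.5 and 94.3 TPM at 60 min.

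KLHL15, a substrate adaptor of a cullin ubiquitin ligase, was at 107, 87.5 and 99.7 TPM, against 167, 239 and 209.8 TPM (1.05 ± 0.16 SE, limma, adjusted p = 0.0273). EFNB2, the membrane ligand ephrin-B2, was at 33.7, 31.0 and 34.7 TPM, against 64.6, 73.0 and 57.5 TPM (0.95 ± 0.15 SE, limma, adjusted p = 0.0341). Both had their 7.5 min libraries close together and stood near 2-fold higher at 15 min, by 2.09 and 1.97 times. KLHL15 missed the threshold without replicate B or C at 7.5 min (0.97 and 1.06) or B or C at 15 min (0.93 and 1.02), and EFNB2 without replicate A, B or C at 7.5 min (0.96, 0.90 and 0.98) or B at 15 min (0.86). The remaining 2 entries past the threshold had a group listed at 0. A lncRNA entry, ENSG00000264937, was listed at 0 in the 7.5 min libraries, at 2.84, 11.4 and 7.60 TPM at 15 min, and at 0 in all 9 later libraries. ENSG00000270483, an entry without a symbol, was at 16.6, 51.6 and 18.9 TPM at 7.5 min and listed at 0 in every 15 min library. An exact 0 in such a table can be a failed estimate, so no fold is given for either. The lncRNA entry missed the threshold without replicate B or C at 7.5 min or C at 15 min (2.89, 2.89 and 2.79), and ENSG00000270483 without B or C at 7.5 min (-4.22 and -4.93) or without any 1 of the 15 min libraries (-4.72 each).

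**Figure D1:**
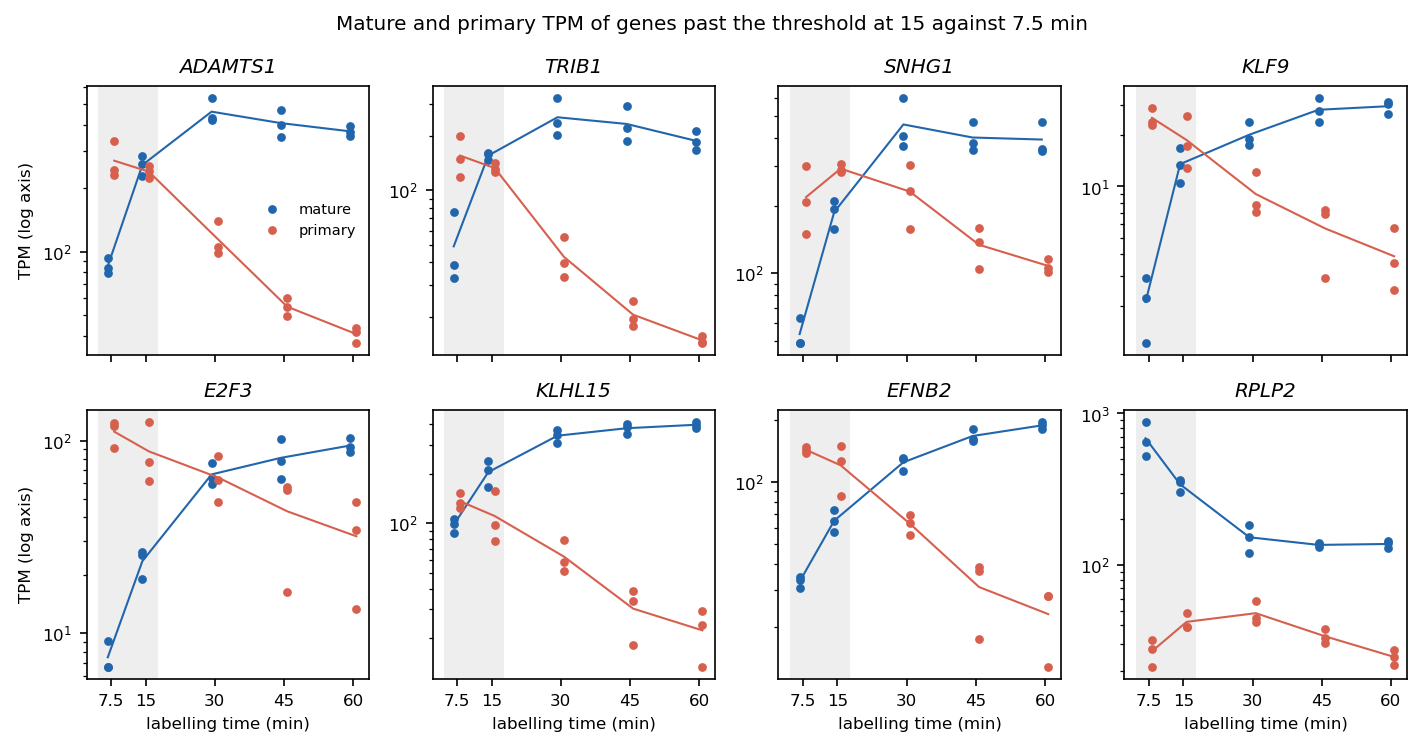
TPM (log axis) of the mature (blue) and primary (red) transcripts of 8 genes by labelling time, with a point for each library, lines through the means of 3 libraries, and the compared times shaded. The first 7 genes had higher mature RNA at 15 min (ADAMTS1 85.4 to 257 TPM on average) while their primary RNA did not pass the test, and RPLP2, called on its primary to mature ratio, had the reverse pattern (mature 686 to 340.4 TPM, primary 27.0 to 42.1 TPM).

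The next genes missed the threshold. ZFAND5, a ubiquitin-binding zinc finger protein, was at 18.3, 15.5 and 17.45 TPM, against 58.1, 35.5 and 40.7 TPM (1.31 ± 0.22 SE, limma, adjusted p = 0.0504). HIC2, a transcriptional repressor, had an adjusted p of 0.0553, PLCG1, a phospholipase of receptor signalling, 0.059, and the growth arrest gene GADD45A 0.0602 (limma), with differences of 1.31, 1.06 and 1.54. On the lower side no gene with a symbol passed. The smallest adjusted p belonged to FBL, the nucleolar methyltransferase fibrillarin, at 452, 437 and 562 TPM, against 292, 264 and 246 TPM (-0.85 ± 0.15 SE, limma, adjusted p = 0.0602). ARL6IP4, the ribosomal proteins RPL35 and RPS16, the chaperone PPIB, the kinetochore protein PMF1 and the cytochrome c oxidase assembly factor COX14 followed. Their differences ran from -2.11 (COX14) to -0.86 (RPS16), with adjusted p from 0.0622 to 0.0771 (limma). COX14 stood at 31.7, 34.5 and 34.5 TPM, against 3.49, 8.91 and 10.6 TPM.

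No primary transcript passed the threshold: 0 of 15059 (0%), with 394 at an unadjusted p under 0.05 (2.62%, limma), 270 higher (1.79%) and 124 lower (0.823%), and a smallest adjusted p of 0.0618. Leaving out replicate A at 15 min gave 6 calls, replicate B or C at 15 min 2 and 4, and replicate A or B at 7.5 min 4 and 1. The median difference over all primary values was -0.12. The letters were taken as pairs for primary values, since each same-letter correlation was over 0.1 (the processing notes give them). However, B at 7.5 min with C at 15 min gave 0.256, above the same-letter values of B (0.187) and C (0.217). This rule therefore cannot show that B and C are pairs. The 0 of 15059 is from the fit without the letter. With the letter as a block 6 primary entries were called, 5 higher and 1 lower. The 6 libraries fitted alone with that block, a setting chosen after seeing the data, gave 411 calls, 238 higher and 173 lower. The 6 entries called with all labelled libraries had means under 7 TPM or shared reads with a near-copy. An example is ENSG00000196138, at 4.14, 8.53 and 6.22 TPM at 7.5 min, against 0, 0.67 and 0 TPM. It had no symbol in the name table. ENSG00000260485 was another, with primary values of 10.4, 6.29 and 8 TPM, against 27.0, 22.8 and 22.4 TPM. Its mature values were identical to those of PUF60, a splicing factor, in all 6 libraries. The primary values of PUF60 matched it exactly at 7.5 min and were listed at 0 at 15 min, so reads of these 2 entries cannot be told apart.

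Primary transcripts with a symbol were ranked among those without overlap and with a mean of at least 5 TPM. On the higher side the smallest unadjusted p then belonged to THAP9-AS1, an antisense lncRNA. It was at 16.7, 10.6 and 9.21 TPM, against 21.1, 28.1 and 26.1 TPM (limma, adjusted p = 0.354). Below that mean, the pseudogene RPSAP70 was also higher, with a smaller adjusted p of 0.0618 (limma). PGP, a phosphatase of glycolytic side products, was at 4.16, 4.64 and 3.62 TPM, against 11.3, 10.3 and 10.5 TPM (limma, adjusted p = 0.354). SNHG15, a relative of SNHG1 among the host RNAs, was at 53.9, 39.6 and 49.1 TPM, against 69.9, 90.8 and 92.4 TPM (limma, adjusted p = 0.89). On the lower side stood GJA1, the gap junction protein connexin 43, at 18.6, 14.7 and 15.0 TPM, against 6.27, 10.0 and 9.16 TPM. TIPARP, which modifies proteins with ADP-ribose, was at 91.0, 53.9 and 53.1 TPM, against 40.2, 38.3 and 39.7 TPM. The transcription factors SALL1, OSR2 and TFAP2A differed by -0.59, -0.66 and -0.47, again without passing (limma, adjusted p = 0.89 for each). The libraries of these genes did not overlap between the times, as was so for 580 higher (3.85%) and 450 lower (2.99%) primary values.

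The genes called in mature RNA showed no such difference in primary RNA. ADAMTS1 primary transcripts were at 335, 231 and 243 TPM, against 224, 241 and 253 TPM, a difference of -0.15. Those of TRIB1 were at 199.6, 118 and 149 TPM, against 131, 126 and 142 TPM, and those of E2F3 at 91.5, 119.6 and 123 TPM, against 61.7, 77.2 and 125 TPM. In each of these genes the 2 times overlapped. SNHG1 was the exception in sign, at 299.6, 149 and 207 TPM, against 288, 308 and 282 TPM (0.48 ± 0.25 SE, limma, adjusted p = 0.89). Of the 8 entries higher at 15 min, 7 had a tested primary value, and none of these passed.

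The ratio of primary to mature TPM, which does not depend on a library's scaling, differed for 3 of 12756 genes (0.0235%), 1 higher (0.00784%) and 2 lower (0.0157%). At an unadjusted p under 0.05 there were 1294 (10.1%), 599 higher (4.7%) and 695 lower (5.45%), and the median over all genes was -0.14. ADAMTS1 fell by 1.74 and TRIB1 fell by 1.96 on the log2 scale, and RPLP2, a stalk protein of the large ribosomal subunit, rose by 1.64 (limma, adjusted p = 0.0399 for each). RPLP2 mature RNA was at 651, 528 and 879 TPM, against 354, 363 and 304 TPM, and its primary RNA was at 31.8, 21.3 and 27.8 TPM, against 38.8, 39.1 and 48.4 TPM. In both forms the 2 times did not overlap, the mature form lower and the primary form higher at 15 min, although each form alone had an adjusted p above the threshold (0.0771 and 0.89, limma). None of the 3 ratios passed when any 1 library was left out. Without replicate A at 15 min their differences were -1.78, -1.92 and 1.72 (limma, adjusted p from 0.0624 to 0.0824), and the 3 ratios called then were other genes.

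Immediate early genes are switched on within minutes of a stimulus, and their RNAs decay fast. Of 43 genes of the list, 40 were tested. Their median difference of mature RNA was 0.60, against -0.01 over all genes. None passed the adjusted threshold, 15 had an unadjusted p under 0.05 on the higher side and 0 on the lower side, where 4.14% and 5.02% of all genes did. The libraries of the times did not overlap for 13, all higher, where 5.44% of all genes were higher and 6.85% lower without overlap. The 15 were EGR1, DUSP1, TOB2, MYC, BTG2, MCL1, ZFP36L2, CCN1, FOS, JUN, SOX4, HES1, FOSL2, IER2 and ZFP36. Values below 0 were seen for MAFK (-0.79), BTG1 (-0.54), IER5L (-0.23), SRF (-0.05) and NR4A1 (-0.00). Without replicate A at 15 min the median was 0.45 with 12 genes at that p.

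EGR1, a zinc finger transcription factor induced by growth signals, was at 18.7, 4.34 and 13.8 TPM, against 49.3, 41.4 and 50.4 TPM (2.05 ± 0.40 SE, limma, adjusted p = 0.0771). Its later means of 37.0, 25.8 and 15.6 TPM were below that of 15 min. DUSP1, the phosphatase that switches off mitogen-activated kinases, was at 43.7, 14.4 and 13.4 TPM, against 108, 61.2 and 63.6 TPM (1.82 ± 0.45 SE, limma, adjusted p = 0.145). Replicate A was the highest DUSP1 library at both times. MYC, a transcription factor of cell growth, was at 201, 111 and 116 TPM, against 409, 313 and 275 TPM (1.25 ± 0.32 SE, limma, adjusted p = 0.159). FOS, the partner of JUN in the AP-1 factor, was at 9.80, 2.01 and 6.80 TPM, against 15.6, 16.6 and 13.8 TPM, and JUN was at 326, 177 and 205 TPM, against 383, 404 and 353 TPM. The 2 times did not overlap for any of these 5 genes. TOB2 and BTG2, which bring deadenylases to messages, differed by 1.17 and 0.69, and the anti-apoptotic MCL1 by 0.71.

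The primary transcripts of the immediate early list had a median of -0.05 over 28 tested members, with 0 at an unadjusted p under 0.05 in either direction. The primary to mature ratio had a median of -0.62, with 10 lower and 1 higher (MAFK) of 28 at that p (limma), where 5.45% and 4.7% of all genes were. For MYC the primary values were 129, 68.1 and 85.3 TPM, against 109, 74.7 and 78.5 TPM, and the ratio differed by -1.33 ± 0.28 (SE, limma, adjusted p = 0.138). DUSP1 (-1.98, adjusted p = 0.0771, limma) and EGR1 (-2.39, adjusted p = 0.212, limma) had ratios that differed in the same direction. The summed mature TPM of the list was 2061, 1140.0 and 1243 at 7.5 min and 2737, 2261 and 2062 at 15 min, so replicate A at 7.5 min reached the level of replicate C at 15 min.

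The promoters of 3 of these genes are printed because the genes are standard examples of rapid induction and their mature RNAs did not overlap between the times. The bases before the start site come from RefSeq (GRCh38.p14), 5′ to 3′ on the strand of the gene, from chr5:138465339-138465478 (plus strand) for EGR1, chr5:172771196-172771335 (minus strand) for DUSP1 and chr14:75278688-75278827 (plus strand) for FOS. Capitals mark matches to the CArG box (the serum response factor motif), the cyclic AMP response element TGACGTCA and the TATA box TATAAA.
EGR1: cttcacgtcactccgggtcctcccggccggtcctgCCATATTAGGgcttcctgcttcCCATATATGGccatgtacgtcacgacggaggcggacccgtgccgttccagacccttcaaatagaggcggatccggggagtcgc
DUSP1: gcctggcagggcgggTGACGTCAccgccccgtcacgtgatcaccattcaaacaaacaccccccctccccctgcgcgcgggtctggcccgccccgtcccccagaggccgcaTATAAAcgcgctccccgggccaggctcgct
FOS: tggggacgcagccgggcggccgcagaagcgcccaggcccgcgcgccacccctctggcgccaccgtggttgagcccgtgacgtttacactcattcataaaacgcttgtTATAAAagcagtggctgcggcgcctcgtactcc
EGR1 held CArG boxes that start 105 and 83 bases before the start site, DUSP1 a response element at 125 and a TATA box at 30, and FOS a TATA box at 33. Both strands of the 250 bases before the start were searched, and a CArG box can overlap a TATA box. The letters TATAAA were in 8 of 31 immediate early genes with a RefSeq promoter (25.8%), in 11.1% of all 27305 promoters, in 8.96% of those of ribosomal protein genes and in 9.84% of those of respiratory chain genes. The response element TGACGTCA was in 2 of 31 (6.45%) against 1.77% of all promoters, 4.48% of ribosomal protein and 6.56% of respiratory chain promoters. The CArG box was in 2 of 31 (6.45%), EGR1 and SRF, against 1.14%, 4.48% and 3.28%. Of the 8 entries called higher in mature RNA, 5 matched, and KLHL15 and EFNB2 held TATAAA, both on the opposite strand. These matches describe letters and not binding.

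**Figure D2:**
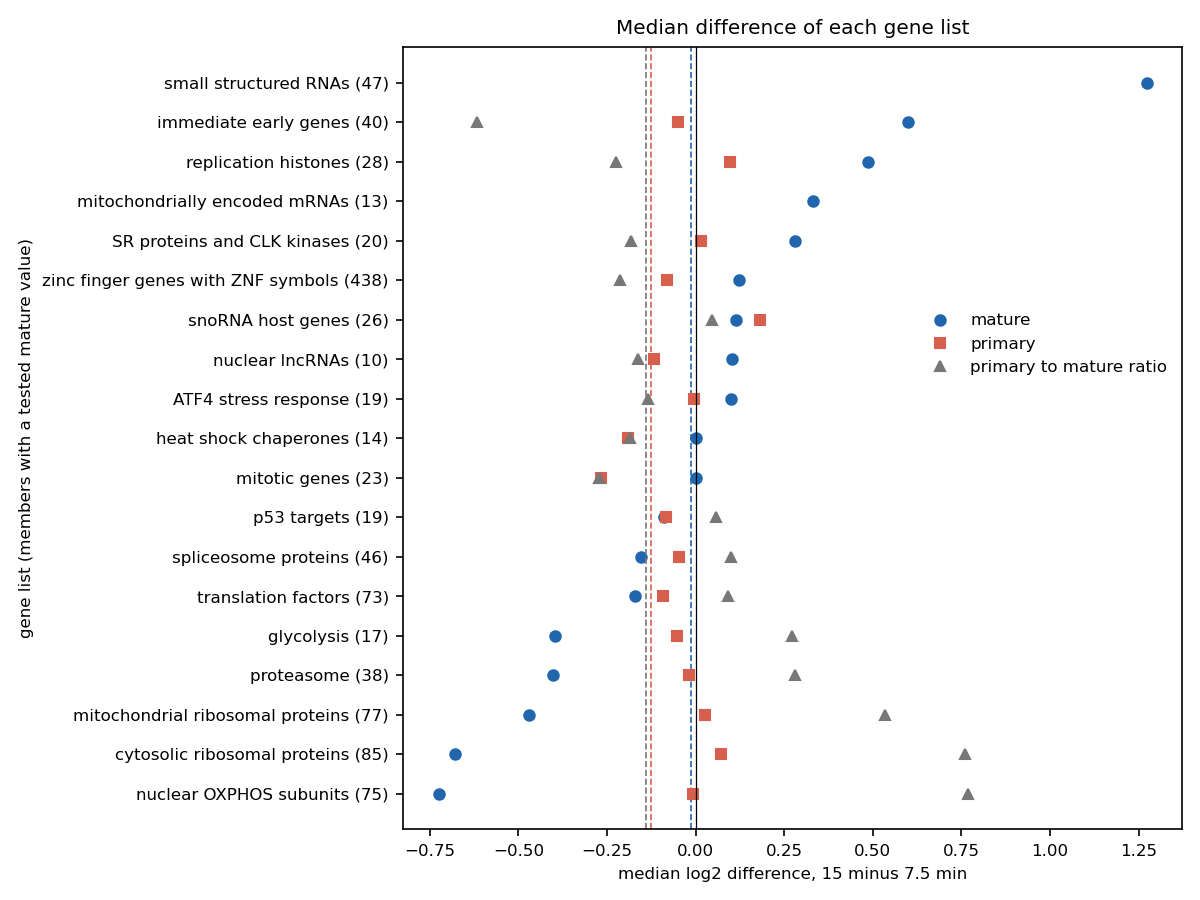
Median log2 difference, 15 minus 7.5 min, of 19 gene lists for mature values (blue circles), primary values (red squares) and the primary to mature ratio (grey triangles), with the number of members with a tested mature value in brackets. Dashed lines are the medians over all genes (-0.01, -0.12 and -0.14), and the mature medians run from -0.73 (nuclear OXPHOS subunits) to 1.27 (small structured RNAs) while the primary medians stay between -0.27 and 0.18.

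Genes for the ribosome and for the respiratory chain lay at the other end. Cytosolic ribosomal proteins had a median mature difference of -0.68 over 85 tested of 86 genes, with 64 lower and 2 higher at an unadjusted p under 0.05 (5.02% and 4.14% of all genes) and none past the adjusted threshold (limma). In 59 the libraries of the times did not overlap on the lower side, as in 6.85% of all genes. Their summed mature TPM was 70387, 61436 and 88944 at 7.5 min and 45988, 45807 and 41207 at 15 min, without overlap. TPM are shares of a library, so a lower value, in this and the other lists, does not show that less labelled RNA was present. RPS2, a protein of the small subunit, was the most abundant, at 3914, 2337 and 3344 TPM, against 2980, 1580 and 1246 TPM, with the highest library at each time being replicate A. RPL35 was at 1313, 1098 and 1558 TPM, against 646, 651 and 599.9 TPM (-1.05 ± 0.20 SE, limma, adjusted p = 0.0711). The 2 members on the higher side were RPS26 and RPL22L1, a paralog of RPL22, at 0.77 and 0.74. RPL10 had the largest difference in size, -3.35, with 0.99 TPM in replicate A at 15 min against 56.4 and 65.9 TPM in the others.

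The primary transcripts of ribosomal protein genes had a median of 0.07 over 75 members. At an unadjusted p under 0.05, 5 were higher and 0 lower (1.79% and 0.823% of all primary values). The ratio had a median of 0.76, with 46 higher and 2 lower (RPS26 and RPL22L1) at that p, against 4.7% and 5.45% of all ratios. RPLP2 was the member past the adjusted threshold. The quantile normalization moved the mature median to -0.32 with 23 lower, and without replicate A at 15 min it was -0.70 with 55 lower. The nuclear-encoded subunits of oxidative phosphorylation (OXPHOS), the mitochondrial chain that makes ATP, had a mature median of -0.73 over 75 members. At that p 37 were lower and 0 higher (limma), against 5.02% and 4.14% of all genes. COX6B1, a subunit of cytochrome c oxidase, was at 394, 366 and 507 TPM, against 256, 244 and 208 TPM. ATP5MF, of the ATP synthase, was at 412, 459 and 446 TPM, against 164, 291 and 190.0 TPM, and COX4I1 at 274, 274 and 305 TPM, against 131, 185 and 112 TPM. None of these 3 overlapped, and each missed the adjusted threshold. OXPHOS primary values had a median of -0.01 over 71 members. Their ratio had a median of 0.77, with 29 higher and 0 lower at that p, against 4.7% and 5.45% of all ratios.

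**Figure D3:**
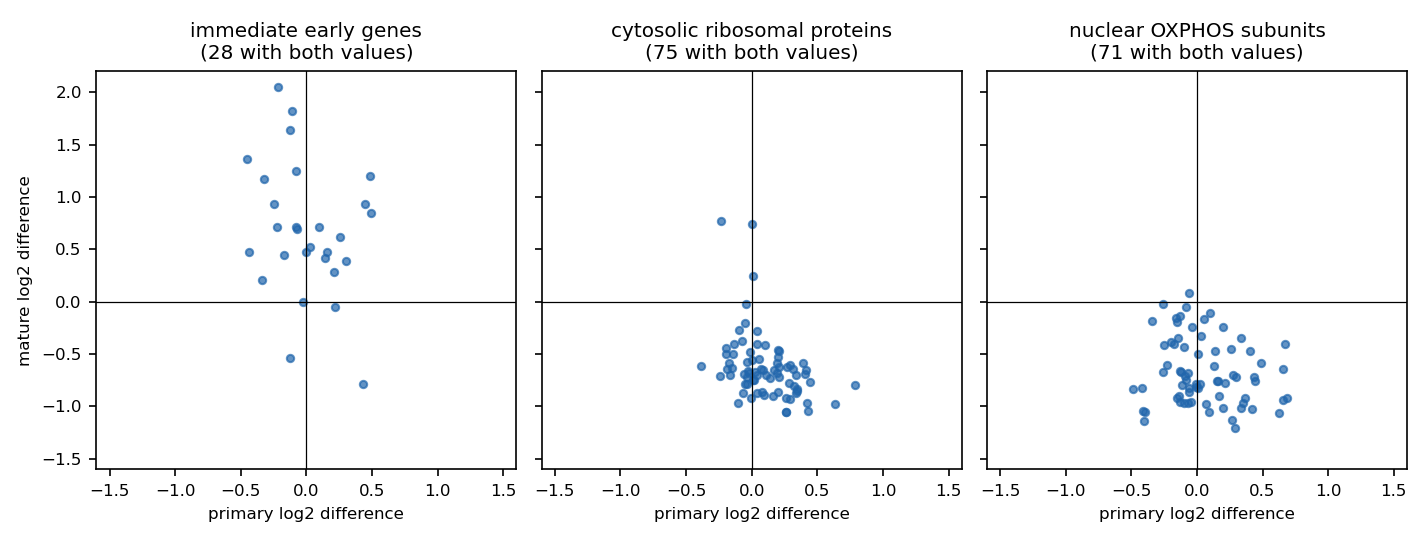
Log2 difference, 15 minus 7.5 min, of mature RNA (vertical axis) against that of primary RNA (horizontal axis) for members of 3 lists with both values, a point for each gene. The 28 immediate early genes lie mostly above 0 in mature RNA (median of the list 0.60), the 75 ribosomal protein genes and 71 OXPHOS genes lie mostly below 0 (medians of the lists -0.68 and -0.73), and all 3 are spread about 0 in primary RNA.

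Other lists of abundant housekeeping genes were also lower without a member past the adjusted threshold. Mitochondrial ribosomal proteins had a median of -0.47 over 77 members, with 19 lower and 0 higher at an unadjusted p under 0.05. MRPS26 was at 75.2, 56.5 and 56.1 TPM, against 27.5, 28.2 and 25.4 TPM (-1.17 ± 0.27 SE, limma, adjusted p = 0.125). Proteasome genes had a median of -0.40 over 38 of 43 members, with 13 lower, and glycolysis genes a median of -0.40 over 17, with 5 lower (ENO1, GAPDH, LDHA, ALDOA and PGAM1), both with 0 higher. With quantile normalization the glycolysis median was -0.17. GAPDH, the glycolytic dehydrogenase, was at 1549, 1238 and 1397 TPM, against 1132, 961 and 686 TPM, while PKM, a pyruvate kinase, overlapped between the times at 661, 506 and 541 TPM and 621, 533 and 471 TPM. PSMD8, of the proteasome's regulatory particle, was at 248, 209 and 297 TPM, against 188, 132 and 143 TPM. Translation factors (73 tested entries, pseudogenes included) had a median of -0.17 with 8 lower and 3 higher at that p, and spliceosome proteins (46) -0.15 with 5 lower (SF3B6, SNRPC, SNRPD2, SNRPF and U2AF1) and 1 higher (SLU7). Over all genes 5.02% were lower and 4.14% higher, so the 3 of 73 stood near the share of all genes. The median of the translation factors was 0.00 without replicate A at 15 min. EIF4A2, an RNA helicase of translation initiation, was at 203, 190.2 and 199.97 TPM, against 256, 513 and 457 TPM, and EEF1B2, an elongation factor subunit, was at 237, 288 and 298 TPM, against 131, 186 and 165 TPM.

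Small structured RNAs, such as the U1, U2 and U4 RNAs of the spliceosome and small nucleolar RNAs, had the highest median, 1.27, over the 47 of 2195 entries that reached 1 TPM. At an unadjusted p under 0.05 16 were higher and 0 lower, and none passed the adjusted threshold. RNU2-2P, a U2 gene, was at 278, 219.7 and 136 TPM, against 590.4, 751 and 985 TPM (1.90 ± 0.54 SE, limma, adjusted p = 0.208). RNU4-2 was listed at 0 in the 7.5 min libraries and at 23.3, 49.5 and 51.7 TPM at 15 min. Such an entry reached the filter through its 15 min values alone, so the median of 1.27 depends in part on the filter. Several U1 entries shared identical values (RNU1-1, RNU1-2 and RNU1-27P, at 24.8, 26.8 and 35.2 TPM, against 93.6, 136 and 91.4 TPM), so reads of near-identical copies were divided between them and the 16 are not separate genes. SNORD3A, the U3 RNA of ribosomal RNA processing, overlapped between the times, at 1523, 514 and 1041 TPM, against 954, 990.5 and 1294 TPM. Over all small RNA entries, 21 of 124 (16.9%) were higher and 3 (2.42%) lower at that p, where 4.14% and 5.02% of all genes were. Their differences were widely spread, with quartiles of -0.97 and 1.32. The list's median was 1.91 with 26 higher without replicate A at 15 min.

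Replication-dependent histone genes, whose messages end in a stem-loop in place of a poly(A) tail, had a median of 0.49 over 28 of 30 genes, with 4 higher (H4C8, H4C11, H2BC13 and H2BC18) and 0 lower at an unadjusted p under 0.05. Over all genes 4.14% were higher and 5.02% lower at that p. H4C11 was at 49.2, 29.8 and 31.9 TPM, against 105, 72.3 and 56.6 TPM. H1-4, a linker histone, was at 422, 513 and 512 TPM, against 436, 972 and 743 TPM, where replicate A at 15 min lay inside the 7.5 min range. Without the 5 libraries with the letter A the histone median was 0.70 with 20 higher. With replicate A at 15 min alone left out it was 0.56, where that of the immediate early list was 0.45. The 13 mitochondrially encoded mRNAs were all above 0, with a median of 0.33 and 3 higher at that p (MT-ND1, MT-ND2 and MT-ND6), and with quantile normalization the median was 0.00. MT-ND6, the complex I subunit encoded on the light strand, was at 1095, 1413 and 1408 TPM, against 1691, 3064 and 2646 TPM (0.88 ± 0.24 SE, limma, adjusted p = 0.187). MT-ATP6, of the ATP synthase, overlapped at 21010, 14515 and 14507 TPM and 21513, 18459 and 13447 TPM.

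Regulators of splicing and stress were mixed. SR proteins and CLK kinases, which set splice site choice, had a median of 0.28 over 20 members, 3 higher (SRSF6, SRSF7 and TRA2B) and 0 lower at an unadjusted p under 0.05. SRSF6 was at 72.6, 55.0 and 57.2 TPM, against 107, 135 and 116 TPM (0.95 ± 0.17 SE, limma, adjusted p = 0.0622). Zinc finger genes with ZNF symbols had a median of 0.12 over 438 of 551, with 33 higher and 7 lower (4.14% and 5.02% of all genes). Leaving out each of the 6 libraries in turn, that median lay between -0.00 and 0.29, the highest without replicate A at 15 min. Of 19 tested p53 targets, 4 were higher at that p (PMAIP1, BTG2, RRM2B and TNFRSF10B), 0 lower, and the median was -0.09, or 0.13 without replicate A at 15 min. The pro-apoptotic PMAIP1 was at 72.0, 109 and 97.3 TPM, against 118, 234 and 232 TPM, while MDM2, which degrades p53, overlapped. The ATF4 stress list had a median of 0.10, with 3 higher (GADD45A, SESN2 and DDIT4) and 1 lower, the asparagine synthetase ASNS. Among snoRNA hosts (26 tested, median 0.11) SNHG1 was the called member, SNHG3 and SNHG16 were higher at that p, and GAS5 overlapped at 163, 169 and 158 TPM and 168, 202 and 170.2 TPM. Heat shock chaperones (14, median 0.00), mitotic genes (23, -0.00) and nuclear lncRNAs (10, 0.10) had 2 members at that p, NORAD and the mitotic kinesin KIF20A, both higher. Those 2 stood near the share of all genes, 4.14%. In the absence of replicate A at 15 min these 3 medians were 0.15, 0.11 and 0.31, where that of all genes was 0.04. MALAT1 was at 259, 406 and 320.0 TPM, against 171, 500.4 and 445 TPM, and ACTB, a cytoskeletal actin, at 1040, 681 and 693 TPM, against 1059, 764 and 599.7 TPM, both overlapping.

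The authors' deposited scores per gene for degradation, polysomes and cytoplasm gave the differences an order. The degradation score was estimated by the authors with every labelling time, these 6 libraries included, so its relation to the difference is not independent evidence. In the quintile (5 classes of equal size) of 13233 genes with the lowest degradation score, the median mature difference was -0.30, with 28 genes higher and 487 lower of 2647 at an unadjusted p under 0.05. In the quintile with the highest score it was 0.11, with 179 higher and 36 lower. The polysomal to cytosolic and cytoplasmic to nuclear scores came from other libraries of the authors. The quintile with the highest polysomal score had a median of -0.28, with 43 higher and 420 lower, and the lowest quintile 0.04, with 106 higher and 22 lower. For the cytoplasmic to nuclear score the medians were -0.21 (92 higher and 386 lower) in the highest quintile and 0.05 (87 and 37) in the lowest. Of all genes tested, 4.14% were higher and 5.02% lower at that p. Among these extreme quintiles, only that of the highest degradation score had a count of higher genes above this share. Without replicate A at 15 min the medians of the extreme quintiles were -0.33 and 0.17 for degradation, -0.35 and 0.21 for the polysomal score and -0.23 and 0.15 for the cytoplasmic to nuclear score. The deposited synthesis and processing scores gave narrower spreads. From the lowest to the highest quintile the medians were 0.01 and -0.04 for synthesis, and -0.07 and -0.02 for processing.

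**Figure D4:**
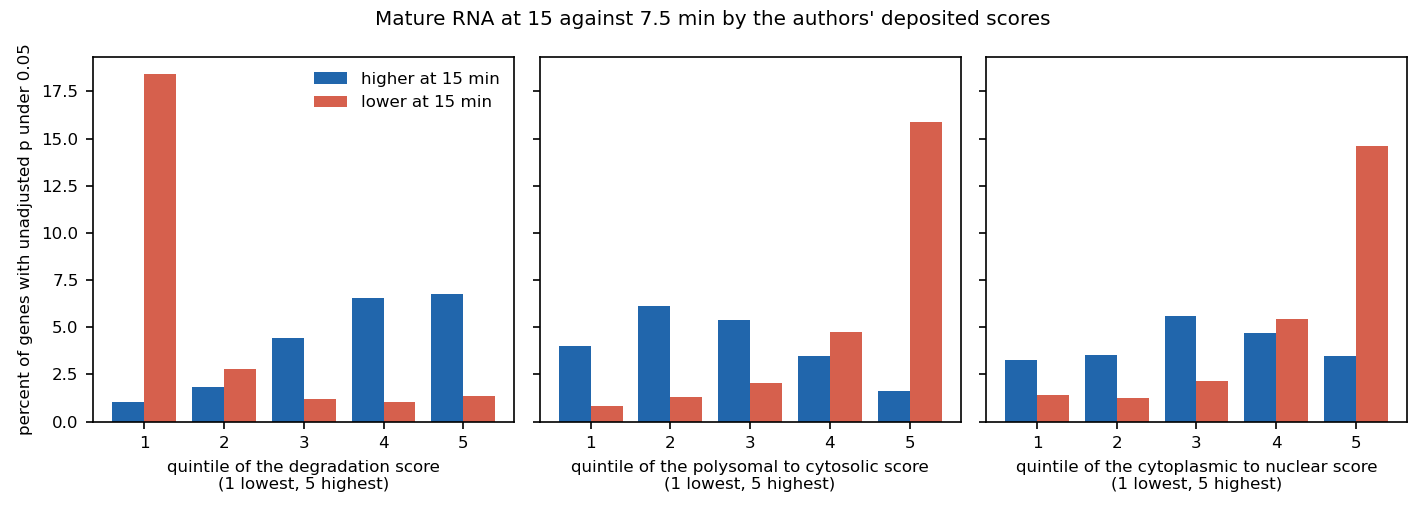
Percent of genes with an unadjusted p under 0.05 that were higher (blue) or lower (red) in mature RNA at 15 than at 7.5 min, by quintiles of 3 deposited scores from lowest (1) to highest (5). The lower genes gather in the lowest quintile of degradation (487 of 2647) and in the highest quintiles of the polysomal to cytosolic (420 of 2647) and cytoplasmic to nuclear (386 of 2647) scores.

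The excised share of an intron (theta, the fraction of molecules across the junction that have lost it) had a median of 0.542 at 7.5 min and 0.579 at 15 min. The authors deposited means over replicates, so an intron has a single value at each time, and no test or error can be given. The median difference was 0.032 (quartiles -0.045 and 0.106), and 61.2% of 21782 introns were higher at 15 min. A rise of over 0.1 was seen in 5836 introns and a drop of over 0.1 in 2778. In the lowest quintile of theta at 7.5 min the median difference was 0.068, and in the highest it was -0.033. This order is partly set by using the same 7.5 min value on both sides.

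Introns were then grouped by base composition, splice site scores, length and place in the gene. From the quintile with the lowest GC (median GC fraction 0.324) to the quintile with the highest (0.568), the median differences were 0.074, 0.058, 0.046, 0.009 and -0.039. In the lowest-GC quintile the median theta went from 0.516 to 0.596, and in the highest-GC quintile from 0.629 to 0.583. Splice site strength gave a narrower spread: over quintiles of the 5′ score the medians lay between 0.026 and 0.036, and over quintiles of the 3′ score between 0.023 and 0.038. For the branch point score they went from 0.046 in the lowest to 0.005 in the highest. For intron length they went from 0.005 in the shortest quintile to 0.051 in the longest. Within 2473 genes with at least 3 measured introns, ordered by coordinate and strand, the first measured intron had a median difference of 0.025 and the last 0.018, and the last moved more upward in 1180 of the genes (47.7%).

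**Figure D5:**
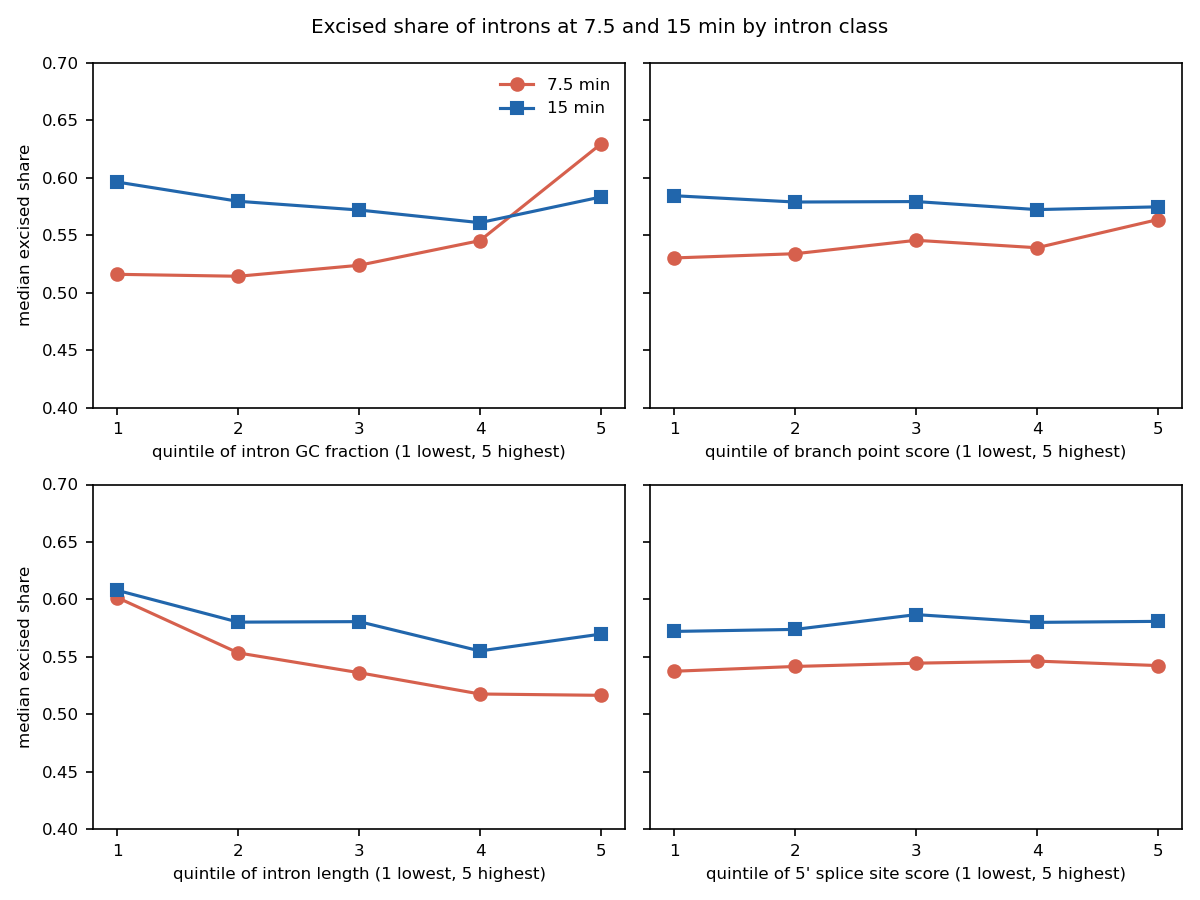
Median excised share of introns at 7.5 min (red) and 15 min (blue) by quintiles of intron GC, branch point score, intron length and 5′ splice site score. The lines cross for GC (0.629 to 0.583 in the highest quintile) and run about in parallel for the 5′ splice site score. They come closer toward the highest branch point scores (0.564 and 0.575) and toward the shortest introns (0.601 and 0.608).

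Theta was also summarised over the introns of each gene list. In the 310 introns of 66 ribosomal protein genes the median theta was 0.752 at 7.5 min and 0.644 at 15 min, and 2.9% were higher at 15 min. The 170 introns of OXPHOS genes went from 0.665 to 0.590. In the 13 introns of 8 immediate early genes the medians were 0.281 and 0.410, and 10 of them moved up by over 0.1. Theta and mature RNA did not share an order in every list. Introns of mitotic genes (227) had a median difference of 0.078 and those of p53 targets (29) 0.071, where the mature medians of these lists were -0.00 and -0.09. Introns of snoRNA hosts (79) had -0.016 and those of SR proteins and CLK kinases (136) 0.021, where the mature medians were 0.11 and 0.28. Introns that host a small nucleolar RNA (162) had a median difference of -0.031, against 0.033 for introns without a small RNA. Introns of the authors' slow cluster (3852) had -0.021, against 0.044 for the fast cluster (8573), although the clusters were made by the authors from theta itself. By quintiles of the mature log2 difference of the host gene, the median difference of theta went from -0.040 to 0.069. Both quantities come from the same libraries, so this order describes them and is not independent support.

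All 8 measured introns of ADAMTS1 on chromosome 21 were higher at 15 min, by 0.147 to 0.232. Its most excised intron at 7.5 min, of 160 bases (hg19, chr21:28210598-28210757), went from 0.227 to 0.457 and reached 0.856 at 60 min. Its least excised intron, of 435 bases (chr21:28212882-28213316), went from 0.067 to 0.214 and reached 0.772. The 2 measured introns of KLHL15 on chromosome X, 16958 and 18156 bases long, went from 0.314 to 0.606 and from 0.310 to 0.516. Both introns of EFNB2 were also higher, by 0.202 and 0.0998. The 7 measured introns of SNHG1 moved by -0.045 to 0.143 and stayed low, with theta at 15 min from 0.056 to 0.339. The 4 introns of RPLP2 on chromosome 11 differed by -0.148 to -0.0335, as from 0.918 to 0.770 in the intron of 889 bases (chr11:811646-812534).

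Among genes with a mean of at least 10 TPM, the largest rise of theta was in an intron of 670 bases of KDM6A, a histone demethylase (chrX:44942035-44942704), from 0.357 to 0.811. Introns of GOLGA4 (0.384 to 0.837), GIGYF2 (0.302 to 0.737), ZNF638 (0.253 to 0.680), DHX8 (0.425 to 0.849) and HSPH1 (0.358 to 0.778) followed. The largest drop was in an intron of 664 bases of ACTR1A, a dynactin subunit (chr10:104240930-104241593), from 0.728 to 0.277, with 0.718 again at 60 min. SUDS3 (0.949 to 0.528), DCXR (0.903 to 0.503), NAE1 (0.705 to 0.307), WDR18 (0.842 to 0.446) and SHMT2 (0.799 to 0.408) followed. These rises and drops were picked by size, and error in either value, which is unknown, favours such picks. The 8 measured introns of GAPDH were all lower at 15 min (-0.169 to -0.0372), and so were the 7 of EEF1A1, an elongation factor (-0.0907 to -0.0139). Of the 5 introns of ACTB, 4 were lower. For MYC the 3 introns, 2 of which share a 5′ splice site, were higher by 0.257 to 0.317.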

How the data were processed

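Labelled RNA of HEK293 cells at 7.5 and 15 min (3 libraries each) was compared. Per the file headers, the authors deposited TPM from RSEM on GENCODE release 19 with an added whole-locus isoform per gene (primary), the mature value being the sum of the others; for intronless genes both were summed and no primary value is given. RSEM 1.2.11, Bowtie 1.0.1 and hg19 are from the submitters' processing notes. TPM carry no read depth, so depth is unknown and no interval for counting error can be given. The excised share is a fraction that the authors deposited from bam2ssj junction counts (more than 5 reads in all 3 replicates, averaged), per the file headers; which aligner found the junctions was not given in the sources used here. Splice site, branch point, degradation, polysomal and cytoplasmic scores are used as the authors deposited them. The authors also deposited distances from the start site as log10 values, per the file headers. These rose along the transcript in 79.1% of 1191 minus strand but 31.7% of 1282 plus strand genes and were not used; introns were ordered by coordinate instead, chosen after seeing the data.

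TPM were compared as log2(TPM + 1) with limma 3.58.1 in R 4.3.3 (empirical Bayes, trend, all 15 labelled libraries, Benjamini-Hochberg at 0.05); a log2 difference understates low genes. Ratios used a pseudocount of 0.1. Deviations of same-letter libraries at 7.5 and 15 min correlated at 0.445, 0.187 and 0.217 for primary values (letters A, B and C), so the letters were taken to pair them (B at 7.5 with C at 15 min gave 0.256, so the letter A alone stands out), and at 0.264, 0.0891 and 0.126 for mature values, so they were not. On simulated data for 16820 mature values, the changed genes were drawn from the more abundant ones only. Of these, 26% of those changed by a log2 of 1 and 84% of those changed by 2 were recovered, with 5 false calls. Recovery of genes near the filter of 1 TPM was not measured. Symbols matched 90.6% of tested mature genes, and gene types are from GENCODE release 29. Named genes were those past the threshold without overlap, up to 12 a direction, filled by smallest p at a mean of at least 5 TPM; for lists, mainly the 3 most abundant members, with others chosen after their values were seen; for introns, the 6 largest differences a direction and those of called and fixed genes. The genes, 21 lists and rules were chosen with earlier results of these data known.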

Additional observations from a re-analysis of the deposited data

How the results depend on the processing

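The number of mature RNAs past the threshold, 9, was 20 with no filter on low values, 5 with median-ratio scaling, 2 with the 6 libraries alone, 5 without the libraries at 45 min, and 4 to 16 when each library was left out in turn. Of the 2 from the 6 libraries alone, 1 was among the 9, the entry ENSG00000270483 without a symbol. No gene with a symbol among the 9 passed there, and ADAMTS1 and SNHG1 came closest (limma, adjusted p = 0.0533 each). The number of primary transcripts, 0, was 4 with a pseudocount of 5, 3 with no filter, 2 with the 6 libraries alone, 3 without the libraries at 45 min, and 0 to 6 with each library left out. The number of ratios, 3, was 11 with a pseudocount of 1, 0 with a primary filter of 0.1 TPM, 1 with the 6 libraries alone, and 0 to 3 with each library left out (none of the 3 among them in any). With the replicate block, that is with the letters A, B and C as a paired term, 232 mature RNAs (109 higher and 123 lower, the 9 among them), 6 primary transcripts and 23 ratios (the 3 among them) passed, and the median unspliced share differed by -1.99 points. Same-letter pairing of mature values rests on a shared letter alone. Of settings chosen after seeing the data, the 6 libraries alone with the replicate block called 1 mature and 411 primary values (238 higher and 173 lower), leaving out the letter A called 24 mature and 15 primary values, and median-ratio scaling without replicate A at 15 min called 3 primary values. The primary share of TPM differed by 0.80 points over entries with both values, by 0.0929 points without replicate A at 15 min, and by -3.43 to 0.0929 points with each library left out; the unspliced share then differed by -3.99 to -0.534 points. The median of translation factors was 0.0013 without replicate A at 15 min. Among the 9 mature calls ADAMTS1 kept an adjusted p under 0.05 (limma) in 17 of 19 settings, KLF9 and SNHG1 in 16, EFNB2 in 7, and all 9 kept their sign. The median theta difference was 0.032 to 0.033 in its alternatives. The cause of these differences was not tested, except that 6 libraries leave fewer to estimate the spread. Junction counts behind theta were not used here, so its error is unknown.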

Other observations

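Entries listed at 0 at one time and above 0 in all 3 libraries of the other were few. In mature values 18 entries were listed at 0 in every 7.5 min library and 11 in every 15 min library, and 10 of these 29 were pseudogenes. HNRNPUL2, a nuclear RNA-binding protein, had primary values of 3.36, 1.34 and 4.98 TPM at 7.5 min and was listed at 0 in the 15 min libraries (limma, adjusted p = 0.0618), while its mature values overlapped at 30.3, 31.3 and 40.1 TPM and 20.97, 32.7 and 31.1 TPM.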
